A study of Mus musculus with 27 samples.

Results

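The Sγ3 switch region lies upstream of the constant gene of IgG3. Joins from the Sμ region of the immunoglobulin heavy chain locus to a window holding Sγ3 were taken from CH12F3, a line of mouse B cells whose main switch is from IgM to IgA. The members were all junctions on chromosome 12 from position 114599500 to 114609999 of mm9, a window of 10500 bp, and numbered 1231 of 193201 junctions, or 0.637%. The cells had been stimulated for 72 h with IL-4, an antibody to CD40 and TGFβ, and junctions were read by LAM-HTGTS, a linear amplification method for mapping translocations, which extends from a fixed bait into the DNA joined to it (the prey). Each of 9 clones gave 3 libraries. PAXX-/-, XLF-/-, XLF-/-PAXX-/- and Ligase4-/- were represented by 2 clones each and WT by the parental line alone. The double mutants both came from 1 of the PAXX-/- clones, so they share its history. Of the Ligase4-/- clones 1 was made from the parental line and the other came from another laboratory.

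Class switching begins when activation-induced deaminase (AID) deaminates cytosines in transcribed switch regions, with AGCT as its best known hotspot motif. The resulting breaks in Sμ and in a downstream acceptor region are joined, mostly by classical non-homologous end joining. DNA ligase 4 seals the ends in that pathway, and XLF and PAXX are accessory factors that act around the ligase complex. Without this pathway alternative ones join ends, often at a few bases shared by both (microhomology). Sγ3 is the first acceptor region downstream of the IgM and IgD constant genes, while Sα, the acceptor for IgA, is the last. In the gene order of RefSeq's mouse table, Ighg3 lies between Ighg1 and Ighd. A join in the deletional orientation removes the DNA between Sμ and the acceptor, as productive switching requires, and a join in the inversional orientation turns that DNA round.

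The sequence of the acceptor is shown first because later counts refer to its repeats and to the bases it shares with the bait. The reference bases given for each junction were merged into a 250-base stretch of the window (chr12:114602500-114602749, mm9, plus strand), with AGCT in capitals. The 122 bases of the bait side (chr12:114664788-114664909, mm9, minus strand, read from the bait into the join) are marked in the same way. They are the most common base of WT reads at each position.
Sγ3 reference: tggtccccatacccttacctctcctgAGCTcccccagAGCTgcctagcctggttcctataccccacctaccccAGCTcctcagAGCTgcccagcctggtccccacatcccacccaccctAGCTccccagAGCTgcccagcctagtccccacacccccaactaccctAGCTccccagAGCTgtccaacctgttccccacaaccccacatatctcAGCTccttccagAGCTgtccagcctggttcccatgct
Sμ bait side: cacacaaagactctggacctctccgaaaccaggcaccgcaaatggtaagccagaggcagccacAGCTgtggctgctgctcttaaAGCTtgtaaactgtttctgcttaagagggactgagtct
The stretch held 10 AGCT motifs and the bait side 2. Over the longest stretch that could be merged, 1220 bases (chr12:114602220-114603439), there were 47 AGCT motifs with a median spacing of 27.5 bases. That stretch matched itself best at a shift of 97 bases (46.9% of bases identical) and next best at 49 bases (43.6%), against a median of 31.4% over all shifts tried from 10 to 120 bases. The window therefore carried the tandem repeats of a switch region, as its label says.

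Reads of joins show the structures counted below. Each is given from the bait side (left) into Sγ3, with the bases of the read that both alignments include in capitals. All lay in the core described below, and all but the 1 named inversional were deletional. They were chosen after the values were seen, as the first such read of each kind. The choice does not show how frequent a structure was. In the pooled joins of WT, 46.8% had microhomology and 25.8% were direct, and in PAXX-/- 51.6% and 15.6%.
PAXX-/-, direct: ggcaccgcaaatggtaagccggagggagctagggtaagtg
XLF-/-, 3-base microhomology: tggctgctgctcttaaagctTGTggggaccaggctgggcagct
XLF-/-PAXX-/-, 3-base microhomology: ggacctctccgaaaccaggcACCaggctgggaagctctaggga
Ligase4-/-, 3-base microhomology: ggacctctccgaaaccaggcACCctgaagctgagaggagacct
Ligase4-/-, 4-base microhomology, inversional: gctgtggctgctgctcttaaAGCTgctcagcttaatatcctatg
WT, direct: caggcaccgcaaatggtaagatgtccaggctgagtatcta
The junctions of these reads lay at chromosome 12 positions 114601811 (PAXX-/-), 114601836 (XLF-/-), 114603221 (XLF-/-PAXX-/-), 114600546 (Ligase4-/-, 3 bases), 114601631 (Ligase4-/-, inversional) and 114601391 (WT).

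Libraries held 3610 to 14524 junctions and 3 to 251 Sγ3 joins, so single mutants rest on few joins. Pooled over libraries, the PAXX-/- clones gave 26 and 38 joins, the XLF-/- clones 14 and 54, the XLF-/-PAXX-/- clones 58 and 90, the Ligase4-/- clones 610 and 279, and WT 62. Of 1014 distinct junction positions, 837 held a single join, and 5 of the 1231 lines were repeats within a library. From the read names, 8 sequencing runs were used. WT, XLF-/-PAXX-/- and Ligase4-/- had runs of their own, and for them genotype and run cannot be told apart, whereas PAXX-/- and XLF-/- shared 2 runs. Libraries were called biological replicates by the submitters without saying whether they were separate cultures. Tests over libraries may therefore measure technical spread, and with WT a single clone they do not show a difference between clones.

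Joins from Sμ to Sγ3 took their highest share in the Ligase4-/- libraries. Shares are of the junctions that lay outside the bait window (10 kb to each side of the bait). The Sγ3 share was 1.87%, 2.18% and 2.39% in the libraries of Ligase4-/- clone 1, and 1.90%, 1.44% and 2.17% in those of clone 2, against 0.629%, 0.669% and 0.877% in WT. Every Ligase4-/- library lay above every library of the other genotypes. Ligase4-/- averaged 1.99% ± 0.331 (SD, n = 6 libraries) and WT 0.725% ± 0.133 (SD, n = 3), a 2.75-fold ratio. The difference of 1.27 points (95% interval 0.778 to 1.76, like the intervals that follow) had the smallest p that 84 arrangements allow (two-sided exact permutation over libraries, p = 0.0119) and did not pass after Benjamini-Hochberg adjustment over 16 tests (adjusted p = 0.0635). With the same exact permutation p, it and the PAXX-/- difference from WT given next passed (adjusted p = 0.0476) when XLF-/- clone 1, its first library or the first library of XLF-/-PAXX-/- clone 2 was left out, since other tests of the 16 then changed. Against XLF-/-PAXX-/-, which averaged 0.438% ± 0.159 (SD, n = 6), Ligase4-/- was 4.55-fold higher, by 1.56 points (interval 1.22 to 1.88, p = 0.00216 by exact permutation, adjusted p = 0.0346). This was the only one of the 16 tests to pass. It no longer passed whichever 1 of the 4 clones was left out, when the difference was 1.40 to 1.71 points and 84 arrangements remained.

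Most libraries of the other mutants had a lower Sγ3 share than WT, but none of these differences passed after adjustment. PAXX-/- libraries gave 0.161%, 0.176% and 0.191% in clone 1 and 0.301%, 0.458% and 0.281% in clone 2, all below the lowest WT library. Their mean of 0.261% ± 0.112 (SD, n = 6) was 0.360 times that of WT, a difference of -0.464 points (interval -0.687 to -0.270, p = 0.0119 by exact permutation, adjusted p = 0.0635). XLF-/-PAXX-/- libraries gave 0.229%, 0.290% and 0.444% in clone 1 and 0.444%, 0.644% and 0.575% in clone 2. Only the highest of these overlapped WT, and the difference was -0.287 points (p = 0.0476 by exact permutation, adjusted p = 0.138).

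The XLF-/- clones stood apart from each other. Clone 1 gave 0.0881%, 0.0835% and 0.128% and clone 2 gave 0.280%, 0.434% and 0.822%, with no overlap between the clones. Together they differed from WT by -0.419 points (p = 0.0833 by exact permutation, adjusted p = 0.167), and by -0.213 points without clone 1. XLF-/-PAXX-/- minus XLF-/- was 0.132 points (p = 0.368 by exact permutation, adjusted p = 0.453) and turned to -0.0742 without XLF-/- clone 1. XLF-/- minus PAXX-/-, with libraries shuffled within their shared runs, was 0.0445 points (p = 0.776 by exact permutation, adjusted p = 0.887), -0.0474 within run 5 (2 libraries of each) and 0.0904 within run 6 (4 of each). Without XLF-/- clone 2 it was -0.162 and without XLF-/- clone 1 it was 0.251, so the order of the 2 single mutants rests on which XLF-/- clone is counted. Over the 9 clones, 96.0% of the share's sum of squares lay between genotypes (p = 0.0519 by exact permutation, adjusted p = 0.138).

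**Figure D1:**
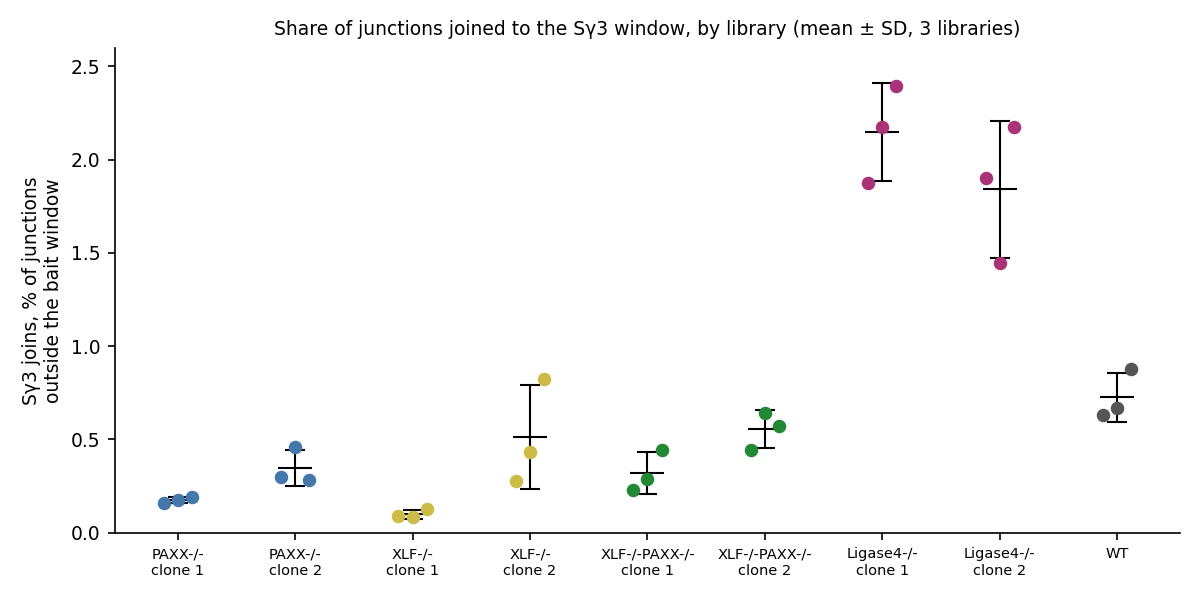
Joins to the Sγ3 window as a percentage of junctions outside the bait window. Points are libraries, horizontal bars the mean and SD of the 3 libraries of a clone. The 6 Ligase4-/- libraries lie between 1.44% and 2.39%, above the 3 WT libraries (0.629% to 0.877%), and the XLF-/- clones do not overlap.

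The share was also set against other acceptor DNA of the same libraries. Per 100 joins in the Sα window (chr12:114489501-114509500), where most acceptor joins lay, Ligase4-/- exceeded XLF-/-PAXX-/- by 2.99 Sγ3 joins (p = 0.00216 by exact permutation, adjusted p = 0.0346). A neighbouring window (chr12:114545000-114554999) was the densest 10 kb between the Sα and Sγ3 windows, with the 10 kb next to each left out of the search. The DNA between Sγ3 and the bait was not searched. In this window the share was 0.936% and 0.438% in the Ligase4-/- clones, 0.294% and 0.487% in XLF-/-PAXX-/- and 0.352% in WT. It was 0.265% and 0.307% in XLF-/- and 0.109% and 0.128% in PAXX-/-. The number of Sγ3 joins per 100 joins in that window differed between genotypes with p = 0.0709 by exact permutation (adjusted p = 0.121), which did not pass. Pooled over libraries, it was 232 and 416 in the Ligase4-/- clones, 207 in WT and 162.5 and 271 in PAXX-/-. In XLF-/-PAXX-/- it was 112 and 117, and in XLF-/- 36.8 and 154. Pooled in this way, Ligase4-/- clone 1 lay near WT, and the PAXX-/- clones lay on either side of WT. The test used the means of libraries instead, and by these both PAXX-/- clones (318 and 272) lay above WT (225). In 1 library of PAXX-/- clone 1 the ratio was 7 Sγ3 joins to 1 join in that window. The window held only 30 joins in WT and 16 and 14 in PAXX-/-.

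Most joins fell in a short core. The shortest interval holding 80% of joins, with clones weighted equally, was chr12:114600431-114603677, 3247 bp long, and held 991 of the 1231 joins. The densest 500 bp bins began at 114602500 (22.8% of joins on average over clones), 114601500 (20.3%) and 114602000 (16.7%), and the reference sequence shown above is the first 250 bases of the densest. Per kb and per 10000 junctions outside the bait window, the core held 52.1 and 46.1 joins in the Ligase4-/- clones, 8.18 and 14.6 in XLF-/-PAXX-/-, 10.8 in XLF-/- clone 2, 5.24 and 10.1 in PAXX-/- and 21.3 in WT. The 44780 bp between the Sγ3 and bait windows held 1.69 and 2.00 per kb in Ligase4-/- and 0.131 in WT. It held 1.78 and 2.63 per kb in XLF-/-PAXX-/-, 1.72 in XLF-/- clone 2 and 0.152 and 0.143 in PAXX-/-. The core was the denser of the 2 in each of these clones, which is a description, since density chose it.

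XLF-/- clone 1 showed no such peak. Its core held 5 joins, 1.08 per kb, while the DNA between the windows held 2.18 per kb, and 9 of its 14 joins lay above the core, towards the bait. Its core share of 0.0349% was 10.1-fold below the 0.351% of XLF-/- clone 2. The clones were closer between the windows, at 0.978% and 0.772%, and in the neighbouring 10 kb window, at 0.265% and 0.307%. They were not alike everywhere outside Sγ3. The Sα window held 69.8% of junctions outside the bait window in clone 1 and 51.4% in clone 2. The 10 kb below the Sγ3 window held 0.112% and 0.184%.

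A larger share of joins lay outside the core in Ligase4-/- than in WT. Joins between the Sγ3 and bait windows were also denser in Ligase4-/- (1.69 and 2.00 per kb) than in WT (0.131). The shares were not corrected for this. The share outside the core was 22.1% and 17.9% in the pooled Ligase4-/- clones, 19% and 16.7% in XLF-/-PAXX-/- and 64.3% (9 of 14 joins) and 25.9% (14 of 54) in XLF-/-, against 3.85% and 5.26% in PAXX-/- and 4.84% in WT. Every Ligase4-/- library (15.5% to 23.0%) exceeded the highest WT library (11.5%), a mean difference of 16.1 points (interval 9.43 to 22.6, p = 0.0119 by exact permutation, adjusted p = 0.0405 over 17 tests added after the values were seen). This and the other added differences of Ligase4-/- from WT given below kept their direction but lost the adjusted call whichever 1 of these 9 libraries was left out (adjusted p up to 0.0867). Fewer arrangements then remained, which raised the smallest p that exact permutation allows (p up to 0.0357). The loss therefore does not tell whether 1 library carried a difference. Between Ligase4-/- and XLF-/-PAXX-/- the difference was 1.53 points (interval -3.45 to 6.49, p = 0.502 by exact permutation), and with the window trimmed by 1 kb at both ends it was 6.84 points (p = 0.0216 by exact permutation, adjusted p = 0.0517). The test of all genotypes did not pass (p = 0.120 by exact permutation, adjusted p = 0.191), and it passed without the first library of XLF-/- clone 1, in which all 6 joins lay outside the core (adjusted p = 0.0476).

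Inversional joins were 405 of the 1231, and in Ligase4-/- they lay nearer the bait than deletional joins did. There the median position was 114602998 for 334 inversional and 114602084 for 555 deletional joins. Of the inversional joins 25.4% lay above the core and 0.599% below it, whereas of the deletional joins 8.65% lay above and 9.01% below. In the 7 clones with at least 3 joins of each orientation, the median of inversional minus that of deletional joins was 919 and 847 bp in Ligase4-/-, -41 and 814.5 bp in XLF-/-PAXX-/-, 2027 bp in XLF-/- clone 2, 537 bp in PAXX-/- clone 1 and 426 bp in WT. It was positive in 6 of 7 clones and averaged 790 bp (p = 0.0312 by exact sign-flip permutation, adjusted p = 0.0759), which did not pass. Among core joins alone the mean was 384 bp (adjusted p = 0.133 by exact permutation).

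**Figure D2:**
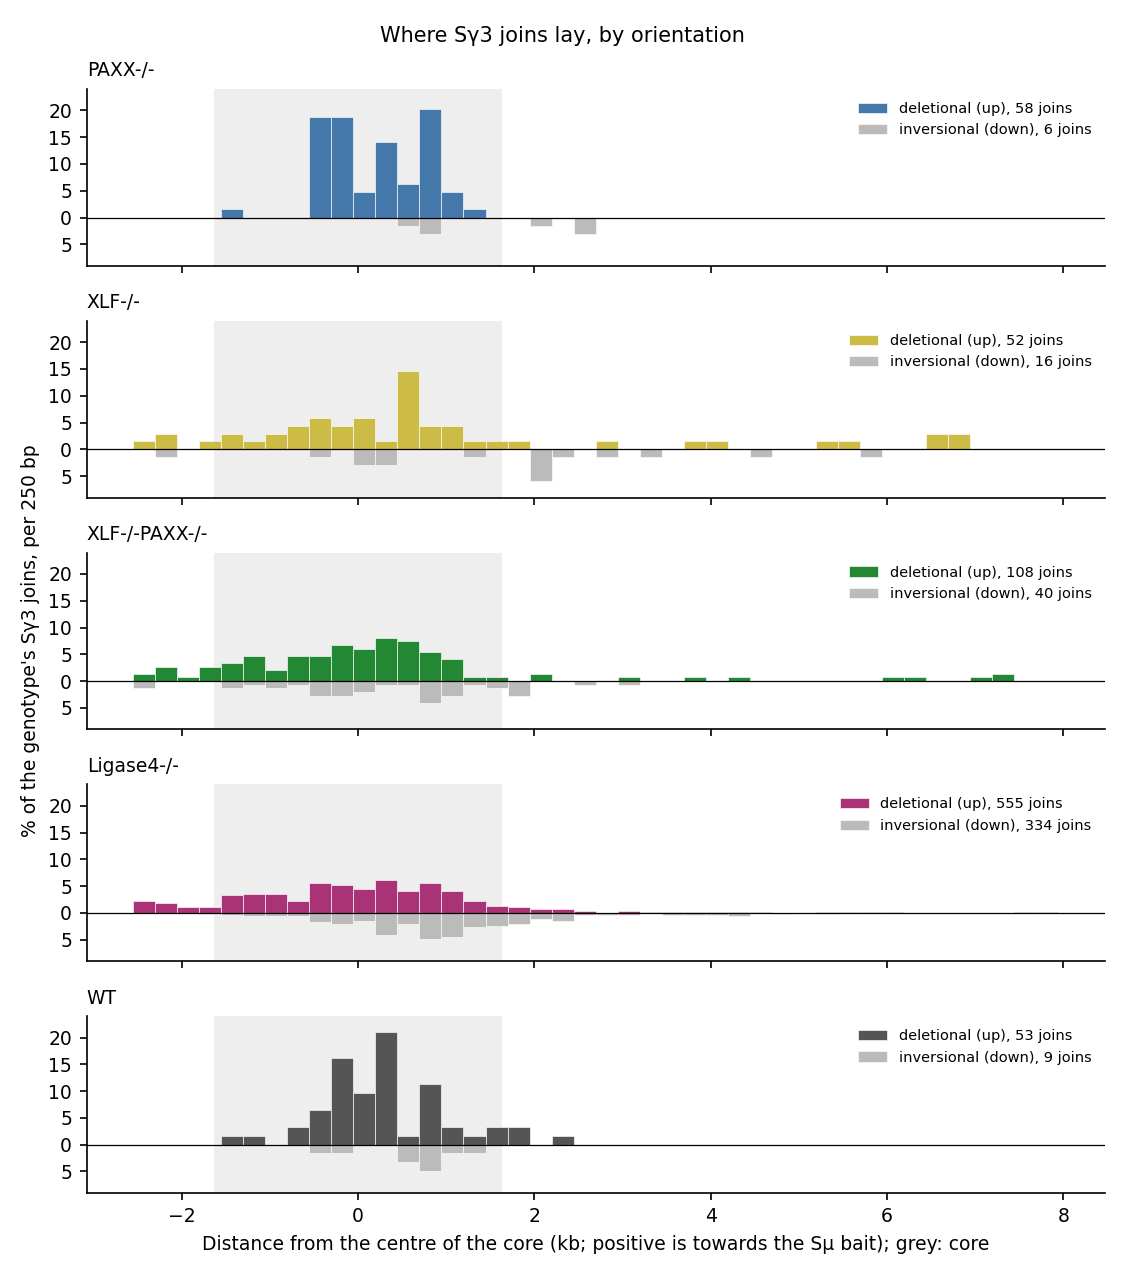
Position of Sγ3 joins by genotype, as the distance in kb from the centre of the core, with deletional joins drawn up and inversional joins down, as a percentage of the genotype's joins per 250 bp. Grey marks the core of 3247 bp. PAXX-/- and WT joins sit almost wholly in the core, and in Ligase4-/- the inversional joins are shifted towards the bait.

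Deletional joins made up 58.5% and 71.0% of Sγ3 joins in the pooled Ligase4-/- clones, 65.5% and 77.8% in XLF-/-PAXX-/-, 92.9% and 72.2% in XLF-/-, 84.6% and 94.7% in PAXX-/-, and 85.5% in WT. By library, Ligase4-/- ranged from 54.5% to 76.3% and WT from 83.3% to 88.9%, without overlap. The difference was -20.5 points (interval -32.2 to -8.30, p = 0.0119 by exact permutation, adjusted p = 0.0405). XLF-/-PAXX-/- libraries ranged from 60.0% to 93.8%, and Ligase4-/- minus XLF-/-PAXX-/- was -9.20 points (interval -22.8 to 3.75, p = 0.149 by exact permutation, adjusted p = 0.195). Over all genotypes the test did not pass (p = 0.347 by exact permutation, adjusted p = 0.453).

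The deletional share was also compared with that of Sα joins of the same clones. At Sα the deletional share was 83.9% and 86.2% in Ligase4-/-, 82.8% and 84.4% in XLF-/-PAXX-/-, 84.7% and 88.0% in XLF-/-, 96.9% and 96.7% in PAXX-/- and 95.3% in WT. Sγ3 lay below Sα in 8 of 9 clones, with XLF-/- clone 1 (14 Sγ3 joins) the exception. The mean difference was -9.74 points (p = 0.0195 by exact sign-flip permutation, adjusted p = 0.0781) and did not pass, while without XLF-/- clone 1 it was -12.2 points (adjusted p = 0.0476) and with core joins alone -6.02 points (adjusted p = 0.265).

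Microhomology was the most frequent structure at Sγ3 in every clone. It was present at 74.1% and 81.0% of joins in Ligase4-/-, 86.2% and 74.4% in XLF-/-PAXX-/-, 57.1% and 74.1% in XLF-/-, 53.8% and 50.0% in PAXX-/-, and 46.8% in WT. Ligase4-/- libraries ranged from 73.0% to 89.5% and WT libraries from 38.9% to 53.8%, without overlap, and differed by 32.2 points (interval 20.4 to 44.1, p = 0.0119 by exact permutation, adjusted p = 0.0405). Ligase4-/- minus XLF-/-PAXX-/- was -1.71 points (interval -11.5 to 8.15, p = 0.714 by exact permutation). Over clones, 85.6% of the sum of squares lay between genotypes (p = 0.0709 by exact permutation, adjusted p = 0.162), short of the threshold.

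Direct joins, with no shared and no inserted base, were 7.05% and 2.51% of joins in Ligase4-/-, 14.3% and 7.41% in XLF-/-, 7.69% and 21.1% in PAXX-/-, and 25.8% (16 of 62) in WT. XLF-/-PAXX-/- clone 1 had 0 of 58, which allows a share of up to 5.17%, and clone 2 had 4 of 90 (4.44%). Low shares thus stood in the Ligase4-/- and XLF-/-PAXX-/- clones and the highest in WT, but the genotype test did not pass (p = 0.108 by exact permutation, adjusted p = 0.191). Inserted bases made up the rest, 18.9% and 16.5% in Ligase4-/-, 13.8% and 21.1% in XLF-/-PAXX-/-, 28.6% and 18.5% in XLF-/-, 38.5% and 28.9% in PAXX-/-, and 27.4% in WT (p = 0.107 by exact permutation over clones, adjusted p = 0.151). Between Sγ3 and Sα joins of the same clone the direct share differed by 0.198 points (p = 0.918 by exact sign-flip permutation, adjusted p = 0.918) and the microhomology share by -0.337 points (p = 0.906 by exact sign-flip permutation, adjusted p = 0.918). The signs of both turned when single libraries were left out.

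**Figure D3:**
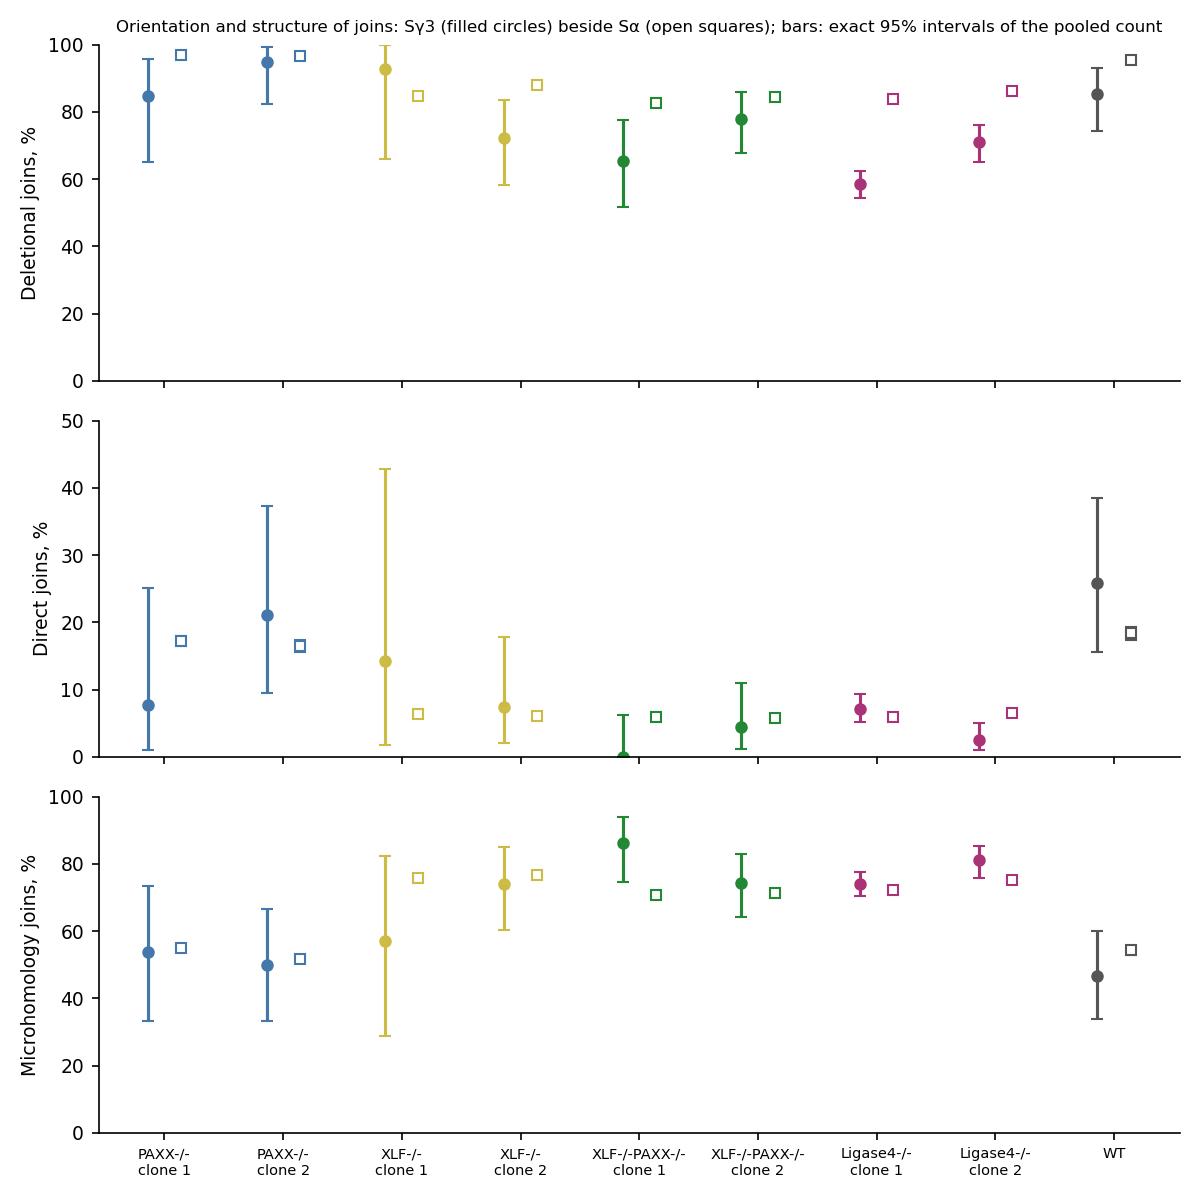
Deletional, direct and microhomology joins as a percentage of joins in each clone, pooled over libraries, for Sγ3 (filled circles) and Sα (open squares), with exact Clopper-Pearson 95% intervals. The Sγ3 deletional share lies below that of Sα in 8 of 9 clones, and the intervals of clones with 14 to 62 Sγ3 joins are wide.

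Overlaps of 4 or more bases took larger shares of Sγ3 joins in Ligase4-/-, XLF-/-PAXX-/- and XLF-/- than in PAXX-/- and WT, which is given as a description. Overlaps of 4 or more bases were found at 249 of 889 joins in Ligase4-/- (28%), 35 of 148 in XLF-/-PAXX-/- (23.6%), 18 of 68 in XLF-/- (26.5%), 4 of 64 in PAXX-/- (6.25%) and 6 of 62 in WT (9.68%). The XLF-/-PAXX-/- clones were unlike, with 36.2% in clone 1 and 15.6% in clone 2, the second below its own Sα share of 19.03%. At Sα the same share was 19.8% in Ligase4-/-, 19.2% in XLF-/-PAXX-/-, 20.6% in XLF-/-, 9.58% in PAXX-/- and 10.2% in WT. Mean microhomology length was 3.44 and 3.39 bases in Ligase4-/- at Sγ3 and 2.83 and 2.86 at Sα. In XLF-/-PAXX-/- it was 3.38 and 2.69 at Sγ3 and 2.86 and 2.82 at Sα, and in WT it was 2.72 at Sγ3 and 2.33 at Sα. Over clones Sγ3 exceeded Sα by 0.246 bases, with 6 of 9 clones positive (p = 0.0586 by exact sign-flip permutation, adjusted p = 0.111), and the genotypes' lengths at Sγ3 gave p = 0.196 by exact permutation (adjusted p = 0.285). Neither passed.

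**Figure D4:**
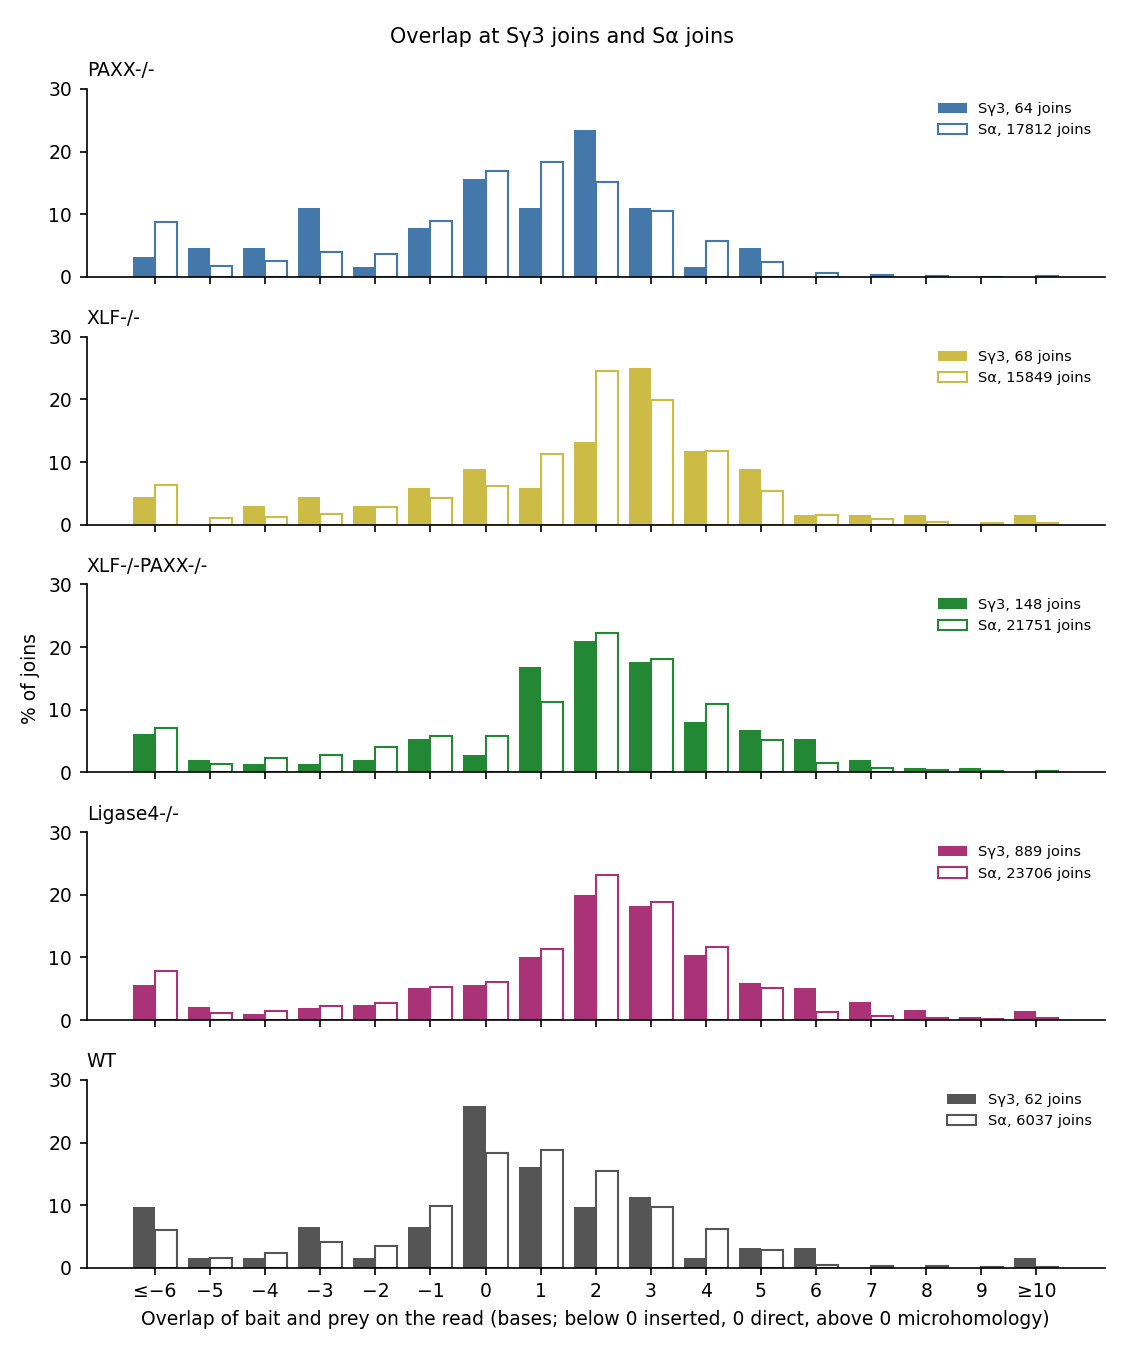
Bases of the read shared by bait and prey, as a percentage of joins, for Sγ3 (filled bars) and Sα (open bars) by genotype. Overlaps of 4 or more bases make up 28% of Sγ3 and 19.8% of Sα joins in Ligase4-/-, and 9.68% and 10.2% in WT.

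Overlap here is the part of the read that both alignments include, and an alignment can include mismatched bases. Each overlap was therefore compared with the bait side shown above at the bait's own end, and with up to 10 bases of the Sγ3 reference. The bait side is the most common base of WT reads at each position, not the genome sequence. Both sides were exact for 591 of 593 overlaps of 1 to 3 bases and 268 of 274 of 4 to 7 bases, but for 13 of 38 of 8 or more. Overlaps of 4 or more bases that were exact on both sides made up 25.1% of joins in Ligase4-/-, 23.0% in XLF-/-PAXX-/-, 22.1% in XLF-/-, 6.25% in PAXX-/- and 8.06% in WT. The Sα overlaps were not checked in this way.

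The most frequent overlaps are given as a description. An exact overlap occurs in both the bait and Sγ3 by its definition, and how often each sequence would be met by chance was not computed. Among overlaps of at least 3 bases, written from the bait side, AGC (25 joins), CAG (24), CTG (20) and GCT (20) were the most frequent, and AGCT itself was found 16 times. Overlaps of 6 or 7 bases recurred too. GGCAGC joined 15 times, in Ligase4-/- (9), XLF-/-PAXX-/- (4) and WT (2), and ACCAGGC 13 times, in Ligase4-/- (11) and XLF-/-PAXX-/- (2). Each is present once in the bait side and 12 or 13 times in the 1220-base stretch, as its reverse complement. Of the 281 exact overlaps of 4 or more bases, 65 contained AGCT (23.1%), 53 of 223 in Ligase4-/-, 8 of 34 in XLF-/-PAXX-/-, 4 of 15 in XLF-/-, 0 of 4 in PAXX-/- and 0 of 5 in WT.

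The longest overlap of up to 10 bases that was exact on both sides is shown as a read, with the shared bases in capitals. It was 9 bases long, took in an AGCT, lay at 114600561 in XLF-/-PAXX-/- clone 1 and was inversional.
XLF-/-PAXX-/-, 9-base overlap: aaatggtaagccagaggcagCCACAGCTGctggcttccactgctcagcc

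Sγ3 joins lay near AGCT more often in PAXX-/- and WT than in the other genotypes. The motif was searched in the 20 reference bases centred on the junction, 10 to each side (it reads the same on both strands). It was present at 39.7% and 40.1% of joins in Ligase4-/-, 37.9% and 35.6% in XLF-/-PAXX-/-, 28.6% and 33.3% in XLF-/-, 76.9% and 63.2% in PAXX-/- and 61.3% in WT. By library, Ligase4-/- ranged from 37.2% to 41.4% and WT from 55.6% to 65.4%, without overlap. The difference was -21.1 points (interval -25.6 to -16.2, p = 0.0119 by exact permutation, adjusted p = 0.0405). Between genotypes lay 97.0% of the sum of squares over the 9 clones (p = 0.0148 by exact permutation, adjusted p = 0.0420). This call was lost without 15 of the 27 libraries, taken 1 at a time (adjusted p up to 0.124). It was also lost without 7 of the 9 clones, taken 1 at a time (adjusted p up to 0.2125 by exact permutation).

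Where reference bases could be merged, part of the window had more AGCT than the rest. The motif is found in 53.7% of 1201 windows of 20 bases in the 1220-base stretch, 39.5% of 3043 in the core and 11.2% of 1308 outside it. Only windows covered by the reference bases given for the joins were counted, at 93.7% of core positions. Outside the core they are the DNA beside joins, so 11.2% is not the motif content of all that DNA. Within the core, AGCT was present at 46.6% of 704 joins in Ligase4-/-, 41.0% of 122 in XLF-/-PAXX-/-, 42.2% of 45 in XLF-/-, 72.1% of 61 in PAXX-/- and 62.7% of 59 in WT. By library, Ligase4-/- core joins ranged from 42.3% to 50.0%, all above the 39.5% of the core's own windows. By clone, XLF-/-PAXX-/- had 42.6% and 40.0%, and XLF-/- had 80% (4 of 5 joins) and 37.5%. Within the 1220-base stretch, whose own windows had 53.7%, Ligase4-/- lay close to that value, at 54.7% of 360 joins. There XLF-/-PAXX-/- had 49.1% of 53, XLF-/- 47.6% of 21, PAXX-/- 75.8% of 33 and WT 64.5% of 31. Joins within 10 bases of the stretch's ends were left out. The genotype test within the core did not pass (p = 0.432 by exact permutation, adjusted p = 0.489), and without XLF-/- clone 2 it did (adjusted p = 0.0405), since XLF-/- clone 1 then stands alone with 5 core joins.

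The motif's place around the breakpoint differed as well, which is given as a description. AGCT spanned the breakpoint at 4.50% of Sγ3 joins in Ligase4-/-, 6.76% in XLF-/-PAXX-/-, 4.41% in XLF-/-, 25% in PAXX-/- and 16.1% in WT. It lay wholly within the 10 bases lost from the join at 18.6% in Ligase4-/-, 16.9% in XLF-/-PAXX-/-, 8.82% in XLF-/-, 39.1% in PAXX-/- and 37.1% in WT. Within the 10 bases kept the range was 18.8% to 25.8%, with PAXX-/- lowest and WT highest. At Sα, too, PAXX-/- and WT were highest, and AGCT spanned 6.29% of breakpoints in Ligase4-/-, 5.90% in XLF-/-PAXX-/-, 6.13% in XLF-/-, 15.7% in PAXX-/- and 17.6% in WT.

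Sγ3 joins had AGCT nearby more often than Sα joins. At Sα the share was 32.1% and 27.7% in Ligase4-/-, 28.1% and 27.4% in XLF-/-PAXX-/-, 28.9% and 28.7% in XLF-/-, 46.2% and 44.7% in PAXX-/- and 50.0% in WT. As the mean of its libraries, every clone was higher at Sγ3 (9 of 9), by 11.4 points on average (p = 0.00391 by exact sign-flip permutation, the smallest that 512 arrangements allow, adjusted p = 0.0405). How often AGCT is present in windows of Sα was not analysed here, so the difference is not corrected for it. Without 10 of the 27 libraries, taken 1 at a time, the adjusted call was lost (adjusted p up to 0.0664). The same held without 3 of the 9 clones, taken 1 at a time (adjusted p up to 0.133 by exact sign-flip permutation). With libraries pooled, XLF-/- clone 1 had 28.6% at Sγ3 and 28.9% at Sα.

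**Figure D5:**
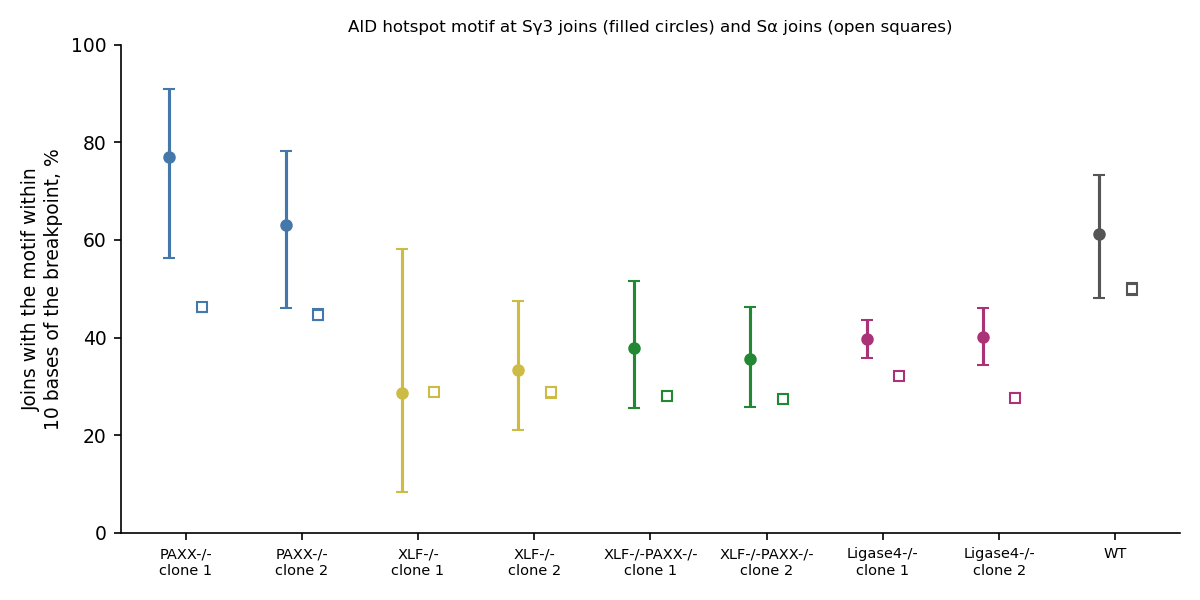
Joins with AGCT within 10 bases of the breakpoint, as a percentage of joins per clone pooled over libraries, at Sγ3 (filled circles) and Sα (open squares), with exact Clopper-Pearson 95% intervals. At Sγ3 the PAXX-/- clones and WT lie between 61.3% and 76.9% and the other clones between 28.6% and 40.1%.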

How the data were processed

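The deposited tables list 1 LAM-HTGTS junction per line, with values of unit "other" (positions, strand and read coordinates made by the authors), and pool the 3 libraries of a clone. Alignment was with Bowtie2 to mm9, per the submitters' processing notes, with settings not given in the sources used here. Libraries were told apart by a name column that carries no replicate number. Overlap was the bait's last read position minus the prey's first, plus 1. Mismatched bases within it were not removed. Values above 0 were microhomology, 0 direct, below 0 insertions. Deletional was the majority prey strand at Sα. For genotypes the sum of squares between groups was permuted exactly over the 945 arrangements of 9 clones. Pairs of genotypes were tested by exact two-sided permutation over libraries, with intervals from inverting the test, and Sγ3 against Sα by exact sign-flip over clones. Benjamini-Hochberg adjustment covered 16 tests, and 17 tests added after seeing values were adjusted apart. A test passed at an adjusted p under 0.05. The window, the tests and the lists were chosen with earlier results of these data known. The rule for naming positions took the core, the 3 densest bins of 500 bp and exact positions held by at least 4 clones. No position met the last criterion. Alternatives moved the window, denominator, duplicates and insertions, and left out libraries and clones. Clopper-Pearson 95% intervals and limits for 0 (3 counts) cover counting error only. The tests were tried on simulated data. Tools were scipy 1.17.1, pandas 2.3.3, numpy 2.4.6 and Python 3.11.15. Gene coordinates in mm9 were not used here.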

Additional observations from a re-analysis of the deposited data

Results flagged for a closer look

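In XLF-/- clone 1 library 1, 100% of the 6 Sγ3 joins lay outside the core, against 21.4% to 40% in the other 5 XLF-/- libraries, the nearest being 40%. It was picked out by its distance from the other libraries of its genotype. In XLF-/-PAXX-/- clone 2 library 3, 7.69% of Sγ3 joins were direct, 3 of 39, against 0% to 2.86% in the other 5 libraries of that genotype, and the distance from them picked it out too. Chance picks out about 1 in 20 groups tested this way, a nominal rate that was not checked for shares of so few joins.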

How the results depend on the processing

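No paired analysis was possible by replicate number because the library names carry none, so pairing was by clone (Sγ3 with Sα) and by shared run only. With the window trimmed by 1 kb at both ends, differences from WT in the share passed the adjusted test for PAXX-/- (-0.464), XLF-/-PAXX-/- (-0.336) and Ligase4-/- (1.13). The same 3 passed as shares of all junctions (-0.346, -0.240 and 0.903) and in the core only (-0.443, -0.334 and 0.899), an alternative chosen after seeing the data. The difference in microhomology share of Sγ3 from Sα turned to 0.688 in the trimmed window and 0.921 in the core, XLF-/- minus PAXX-/- share to -0.0382 in the core, and Ligase4-/- minus XLF-/-PAXX-/- share outside the core to -0.389 without insertions over 20 bases. The cause was not tested. Leaving out single libraries or clones gave ranges for the share of -0.549 to -0.379 (PAXX-/- minus WT), 1.12 to 1.42 (Ligase4-/- minus WT), -0.0742 to 0.338 (XLF-/-PAXX-/- minus XLF-/-), 1.40 to 1.71 (Ligase4-/- minus XLF-/-PAXX-/-) and -0.162 to 0.251 (XLF-/- minus PAXX-/-). Sγ3 minus Sα ranged from -12.2 to -7.85 points (deletional), -1.06 to 1.44 (direct) and -2.28 to 1.79 (microhomology). The genotypes' sum of squares outside the core ranged from 67.2% to 99.5%. Ligase4-/- minus XLF-/-PAXX-/- ranged from -8.07 to 4.65 (microhomology share) and -2.77 to 6.40 (share outside the core). The added differences between Ligase4-/- and WT kept their direction and lost the adjusted call whichever 1 of the 9 libraries of these genotypes was left out (adjusted p up to 0.0867), with ranges of -22.8 to -18.4 (deletional), 28.8 to 36.3 (microhomology), 15.6 to 21.3 (outside the core) and -23.6 to -18.7 (AGCT). With fewer arrangements left the smallest possible p was higher, so this loss does not tell whether 1 library carried a difference. The AGCT call between genotypes was lost without 15 of 27 libraries (85.5% to 98.6%) and that of Sγ3 against Sα without 10 (9.72 to 13.4 points). With clones left out 1 at a time, the first was lost without 7 of 9 (96.6% to 98.2%) and the second without 3 (9.41 to 12.5 points). In the core only, the added calls that could be computed were lost. The differences of Ligase4-/- from WT there were -17.3 (deletional), 30.7 (microhomology) and -16.1 (AGCT), with adjusted p of 0.101, 0.0675 and 0.0675 by exact permutation. That of Sγ3 from Sα in AGCT share was 20.1 points, larger than in the window, with the same exact permutation p (adjusted p = 0.0664). The AGCT sum of squares between genotypes was 53.7%. Depth limits the PAXX-/- and XLF-/- clones most, with 14 to 54 joins each.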
